A study of Mus musculus with 6 samples.

Results

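Acute phase genes are those whose products climb or fall in blood and tissue during inflammation. The 10 examined here, Saa1, Saa2, Saa3, Lcn2, Hp, Orm1, Serpina3n, Lbp, Steap4 and Il1rn, were found by exact symbol among the 36144 gene rows of a table of subcutaneous white fat from mice. All 10 were present, and 8 reached 1 TPM (a length-corrected share of all transcripts in a library, scaled to the same total of 1000000) in at least 3 of the 6 libraries and were tested. Saa1 and Saa2 did not.

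The libraries are 3 labelled Tumor, whose genotype label reads full-body knockout of MSRA, and 3 labelled WT, whose genotype label reads MSRA WT. All 6 share 1 treatment label, an orthotopic transplant, which by the design text means pancreatic ductal adenocarcinoma cells placed in the pancreas of the host, with fat taken 4 to 5 weeks later. The series title instead contrasts mice with tumors and controls without, so the labels do not settle whether tumor or genotype separates the groups. The sources used here give no strain, sex or age for the mice. Titles call the replicates biological without naming animals, and p-values measure the spread between these libraries. Msra, the gene named in the genotype label, had 52.9, 40.0 and 26.9 TPM in libraries labelled Tumor, against 51.1, 59.1 and 56.3 TPM in those labelled WT. It was thus well above 0 where the label says knockout, and every direction below goes by the words Tumor and WT in the titles, as labels of libraries.

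In the classical acute phase response, the cytokines interleukin 6, interleukin 1 and tumor necrosis factor act on the liver through the transcription factors STAT3, C/EBP and NF-kB, and hepatocytes then secrete serum amyloid A, haptoglobin and orosomucoid. White fat makes several of the same products. Haptoglobin and lipocalin 2 are known as adipocyte products, and Saa3 is the serum amyloid A gene of mouse that is used mainly outside the liver. The other roles are defensive or restraining. Lipopolysaccharide-binding protein hands bacterial lipid to CD14, Serpina3n inhibits serine proteases, Steap4 is a membrane reductase of iron and copper, and Il1rn encodes the antagonist that occupies the interleukin 1 receptor.

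The libraries differed in tissue content across the groups. B and plasma cell markers summed to 9.07 TPM in Tumor replicate 1 and 6.93 TPM in WT replicate 3, and to between 886 and 2442 TPM in the other 4. Summed over 10 adipocyte markers the level was 45364, 33680 and 12933 TPM in libraries labelled Tumor, against 31179, 36561 and 55271 TPM in those labelled WT. Tumor replicate 3 therefore had the least adipocyte RNA. Skeletal muscle markers summed to 1947, 620 and 2487 TPM in libraries labelled Tumor, against 19.8, 2974 and 9.95 TPM in those labelled WT. Over the 8 of them tested, the median log2 difference was 3.79. In bulk tissue, fewer cells of a type and less RNA per cell cannot be told apart. Hepatocyte markers were checked because the liver is the main source of these proteins elsewhere. The 10 markers summed to 1400, 1053 and 529 TPM in libraries labelled Tumor, against 790, 1455 and 1852 TPM in those labelled WT. Nearly all of that was Cyp2e1, an oxidase that fat also expresses, with 1382, 1038 and 523 TPM in libraries labelled Tumor, against 773, 1444 and 1831 TPM in those labelled WT. Of the other 9, 5 stayed under 1 TPM in every library (Apob, Cps1, Ttr, F2 and Fgb, at most 0.690 TPM), and Apoa1, Apoa2 and Serpina1a reached at most 1.06, 1.47 and 4.58 TPM. The albumin gene Alb had 15.4, 10.9 and 3.01 TPM in libraries labelled Tumor, against 9.98, 6.30 and 16.2 TPM in those labelled WT. The part of hepatocyte RNA in the members was not tested. Saa1 and Saa2 stayed under 1 TPM in every library. Which cells of the tissue held them was not measured.

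Between the groups none of the 8 tested genes passed. The test was limma on log2(TPM + 1) over 14140 genes, and 0 members had an adjusted p below 0.05, where 0% of all genes did. At an unadjusted p below 0.05 there were 0 members too, against 3.75% of all genes as higher and 1.70% as lower in the libraries labelled Tumor. For 0 of the 8 members did the groups fail to overlap, against 15.0% of all genes, 11.8% with every library labelled Tumor above and 3.23% with every one below. The median log2 difference was 0.21 over the 8 members and 0.23 over all genes tested. The members' median was -0.34 without Tumor replicate 1 and 0.55 without Tumor replicate 3, 0.44 without WT replicate 3, and between 0.0081 and 0.060 without each of the other 3 libraries. It was -0.65 with macrophage markers as a covariate. Of the 8 differences 5 were positive and 3 negative, from -0.86 for Orm1 to 1.57 for Il1rn.

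**Figure D1:**
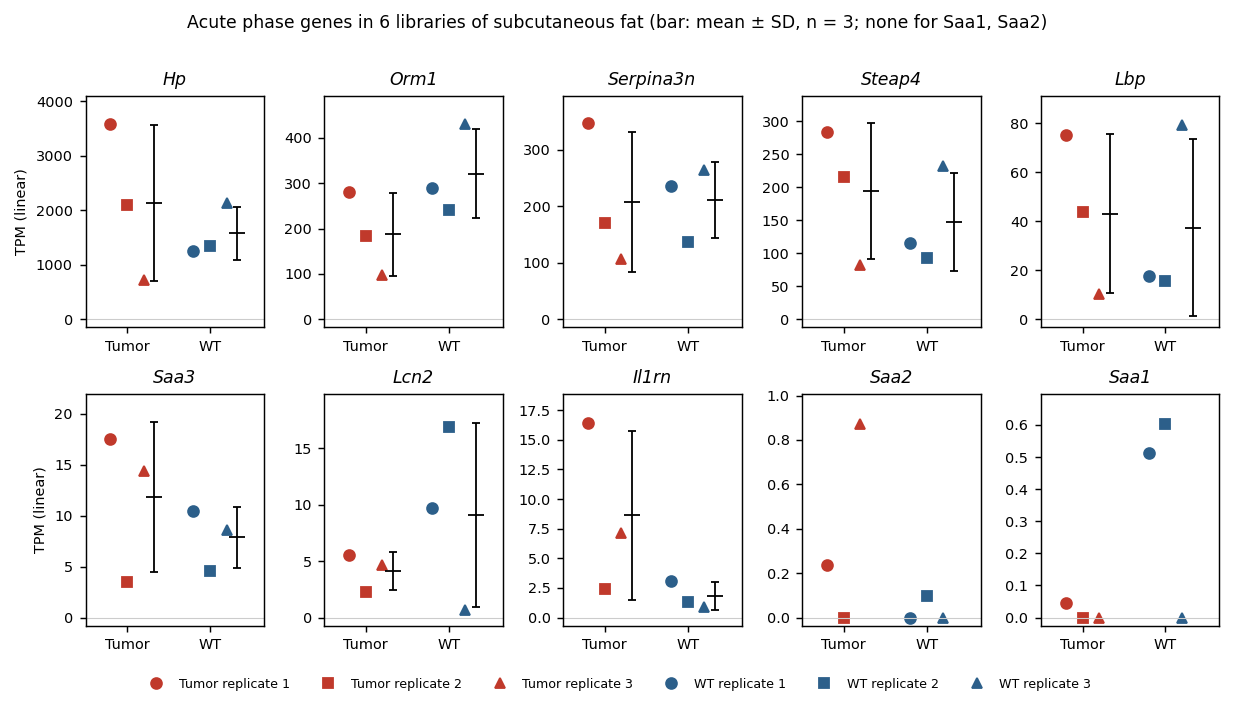
TPM of the 10 genes, each panel on its own linear axis from 0, with the 3 libraries labelled Tumor left of the 3 labelled WT, and the mean ± SD (n = 3) at the right of each group except for Saa1 and Saa2. The groups overlap in every panel, and Tumor replicate 3 is the lowest library for Hp, Orm1, Serpina3n, Steap4 and Lbp.

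Haptoglobin, which binds free hemoglobin in plasma, was the most abundant member. Its gene Hp (chromosome 8, 109575128 to 109579172, minus strand; all gene coordinates are GRCm38, GENCODE M21) had 3584, 2104 and 718 TPM in libraries labelled Tumor, against 1255, 1344 and 2126 TPM in those labelled WT. Tumor replicate 1 was the highest and Tumor replicate 3 the lowest, so that the group labelled Tumor spanned the one labelled WT. The means were 2135 ± 1434 and 1575 ± 479 TPM (SD, n = 3). Tumor minus WT came to 0.20 on the log2 scale (SE 0.62, adjusted p = 0.923 by limma), within that spread. From the highest library to the lowest, the order was the same as for the adipocyte hormone Adipoq, an order that 2.07% of all genes tested also had. Of the 10 adipocyte markers only Adipoq itself had it.

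Orm1 encodes orosomucoid, an abundant plasma glycoprotein that carries small lipophilic molecules, and lies on chromosome 4 (63344560 to 63348163, plus strand). Its level was 282, 183 and 97.4 TPM in libraries labelled Tumor, against 290, 242 and 432 TPM in those labelled WT. It was the member with the most negative difference, with only Tumor replicate 1 above any library labelled WT. With median-ratio factors all its values labelled Tumor lay below those labelled WT, as for 912 of 14140 genes. The means of 187 ± 92.2 and 321 ± 98.7 TPM (SD, n = 3) differed on the log2 scale by -0.86 (SE 0.44, 95% interval -1.93 to 0.20, limma adjusted p = 0.737). Its sign was negative in all 22 alternatives run, where the values lay between -1.57 and -0.40. The replicate block, the other filters and the fits without trend or robust moderation leave the difference at -0.86 by construction. Those alternatives therefore say nothing of its sign. Its paralogs were lower in level. Orm3 had 13.0, 11.2 and 3.72 TPM in libraries labelled Tumor, against 16.1, 15.7 and 8.75 TPM in those labelled WT, and Orm2 between 0.801 and 2.71 TPM in all 6. The coding transcripts of Orm1 and Orm2 are 91.0% identical over 775 aligned bases and those of Orm1 and Orm3 86.1%, so the division of reads among them is uncertain.

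Serpina3n (chromosome 12, 104406729 to 104414329, plus strand), a secreted inhibitor of serine proteases from a mouse gene cluster related to human antichymotrypsin, had 347, 170 and 106 TPM in libraries labelled Tumor. In those labelled WT it had 236, 136 and 264 TPM. Both groups centered on nearly the same level, 208 ± 125 and 212 ± 67.0 TPM (SD, n = 3). The log2 difference was -0.14 (SE 0.49, limma adjusted p = 0.930), with a 95% interval from -1.33 to 1.05. Reads shared within the Serpina3 cluster could be divided wrongly by the counting, and its values are uncertain to that extent.

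Steap4 (chromosome 5, 7960457 to 7982213, plus strand) is a membrane protein of adipocytes and the member that is not secreted. It had 284, 216 and 82.1 TPM in libraries labelled Tumor, against 116, 93.1 and 232 TPM in those labelled WT. Tumor replicates 1 and 2 and WT replicate 3 were high and the other 3 libraries low. The means of 194 ± 103 and 147 ± 74.5 TPM (SD, n = 3) differed on the log2 scale by 0.34 (SE 0.56, limma adjusted p = 0.854).

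Lbp (chromosome 2, 158306493 to 158332852, plus strand) divided the libraries most sharply among the members above 20 TPM on average. Its level was 75.3, 43.7 and 10.4 TPM in libraries labelled Tumor, against 17.6, 15.7 and 79.1 TPM in those labelled WT. The highest library held 7.63 times the lowest, and each group had both a high and a low library. Its log2 difference of 0.21 had an SE of 0.90 (limma adjusted p = 0.943).

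Of these abundant genes, 4 shared the 2 highest libraries and the lowest, though not the whole order. For Hp, Serpina3n, Steap4 and Lbp, the highest were Tumor replicate 1 and WT replicate 3 in either order and the lowest was Tumor replicate 3. That held for 4 of the 8 members, 9 of 10 adipocyte markers, 4 of 8 endothelial markers and 5 of 10 progenitor markers. It held for 3 of 3 negative acute phase genes and 14.0% of all genes tested. Fewer followed it among other acute phase genes (2 of 22), macrophage markers (3 of 10), cytokine receptors (3 of 13), signalling genes (1 of 21) and STAT3 targets (0 of 10). This order was noticed in the values and not set beforehand. Tumor replicate 1 and WT replicate 3 were also the libraries poor in lymphoid transcripts. Tissue content was not tested as the source of the order.

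**Figure D2:**
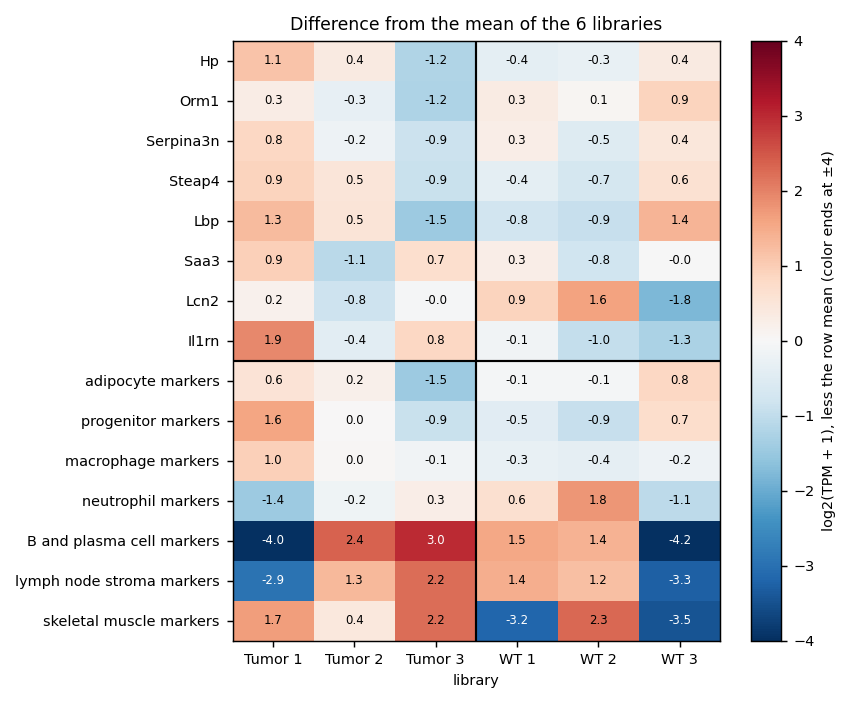
Each cell gives log2(TPM + 1) of a library less the mean of the 6 libraries, for the 8 tested genes (top) and for the mean of 7 lists of cell type markers (bottom), with Tumor left of WT. Hp, Steap4 and Lbp are at their lowest in Tumor replicate 3, as are the adipocyte markers. Lcn2 is highest in WT replicate 2, as are both the neutrophil and the skeletal muscle markers.

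Relative to adipocyte RNA, Hp and Steap4 separated the groups, with higher values in the libraries labelled Tumor, though neither passed the adjusted test. Both were singled out after their values were seen. Per 1000 TPM of the 10 adipocyte markers, Steap4 had 6.27, 6.40 and 6.35 TPM in libraries labelled Tumor, against 3.71, 2.55 and 4.20 TPM in those labelled WT. The groups did not overlap and the ratio of their means was 1.82. Hp had 79.0, 62.5 and 55.5 TPM per 1000 in the libraries labelled Tumor, against 40.3, 36.8 and 38.5 in those labelled WT, again with no overlap and a ratio of 1.71. With each of the 10 markers alone as the denominator, the ratio ran from 1.35 to 2.15 for Steap4, with no overlap for 9 markers. It ran from 1.07 to 2.04 for Hp, with no overlap for 8. The lowest ratio of both genes was that to Lep, the leptin gene. The 10 denominators come from the same libraries and are not independent checks. The share of all genes without overlap was not computed for these ratios.

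This scaling was chosen after the values were seen, and 9 of the 10 adipocyte markers themselves had a negative log2 difference, so it moves all genes toward higher values in the libraries labelled Tumor. With the mean log2 level of the adipocyte markers subtracted in each library, the median over all genes tested was 0.70, the difference of Steap4 0.80 and that of Hp 0.66 (limma adjusted p = 0.697 for both). By that measure 2 of 8 members lay higher in every library labelled Tumor, against 6.89% of all genes, and 0% of all genes passed the adjusted threshold. With the adipocyte markers as a covariate the log2 difference was 0.77 for Steap4 (SE 0.17, unadjusted p = 0.00377, limma adjusted p = 0.429), 0.67 for Hp (SE 0.19, unadjusted p = 0.0121, limma adjusted p = 0.448) and 0.92 for Lbp (SE 0.31, unadjusted p = 0.0256, limma adjusted p = 0.467). Orm1 stayed negative in that fit at -0.54 (SE 0.16, unadjusted p = 0.0174, limma adjusted p = 0.466). None passed the adjusted threshold, and in that fit 7.89% of all genes were higher and 2.52% lower at an unadjusted p below 0.05. The numbers per adipocyte marker for Serpina3n, Orm1 and Lbp overlapped between the groups.

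**Figure D3:**
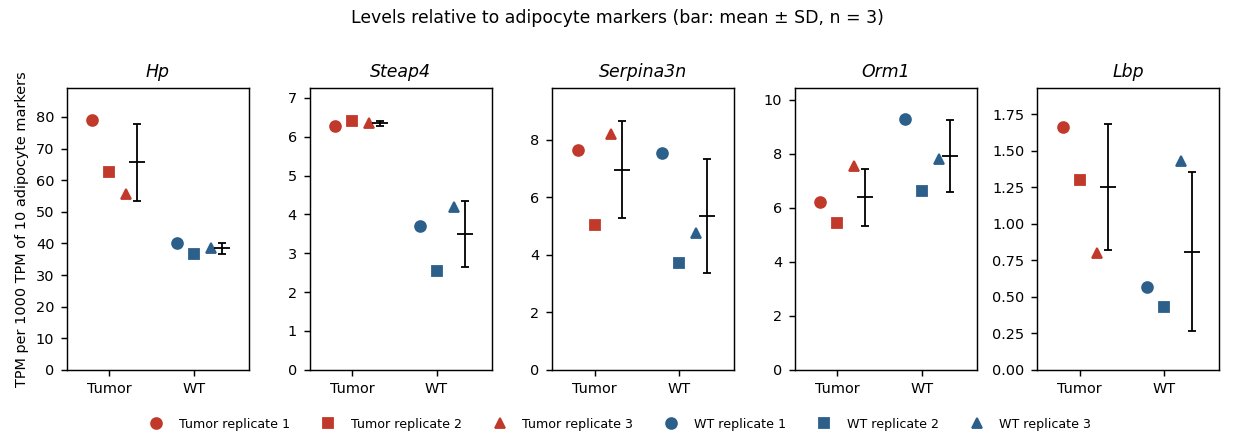
TPM of 5 genes per 1000 TPM of the 10 adipocyte markers summed in the same library, on linear axes from 0, Tumor left of WT, with the mean ± SD (n = 3) at the right of each group. The 3 points labelled Tumor lie above all 3 labelled WT for Hp and Steap4, and the groups overlap for Serpina3n, Orm1 and Lbp.

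The serum amyloid A genes sit together on chromosome 7, and Saa3 alone of the 3 members there exceeded 1 TPM. Saa3 (46711998 to 46715700, minus strand) had 17.5, 3.50 and 14.4 TPM in libraries labelled Tumor, against 10.4, 4.59 and 8.57 TPM in those labelled WT. Tumor replicate 2 was the lowest of the 6 and the other libraries labelled Tumor the highest. The means of 11.8 ± 7.36 and 7.87 ± 2.99 TPM (SD, n = 3) differed on the log2 scale by 0.36 (SE 0.60, limma adjusted p = 0.855).

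Saa1 (46740497 to 46742980, minus strand) and Saa2 (46751790 to 46754313, plus strand), the liver forms carried on high-density lipoprotein, were at the edge of detection. Saa1 was listed at 0.0449, 0 and 0 TPM in libraries labelled Tumor, against 0.512, 0.603 and 0 TPM in those labelled WT. Saa2 was listed at 0.235, 0 and 0.873 TPM in libraries labelled Tumor, against 0, 0.0991 and 0 TPM in those labelled WT. For transcripts of their length 3 fragments come to between 0.237 and 0.347 TPM, a floor for counting error only, so 3 of these 12 values lie above it. Their coding transcripts are 87.3% identical over 655 aligned bases, and reads may have been divided between them, so neither a fold nor a test is given.

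Promoters were set side by side because Saa3 and the pair of liver forms differed so much in level in the same libraries. The bearing of the sequences on these levels was not tested. The 250 bases before the RefSeq start (GRCm38.p6) follow for Saa1 (chr7:46742981-46743230, minus strand), Saa2 (chr7:46751583-46751832, plus strand) and Saa3 (chr7:46715677-46715926, minus strand), each printed 5′ to 3′ on its own gene's strand. Capitals mark matches to TTGCNNAA on either strand, a core of C/EBP sites.
Saa1: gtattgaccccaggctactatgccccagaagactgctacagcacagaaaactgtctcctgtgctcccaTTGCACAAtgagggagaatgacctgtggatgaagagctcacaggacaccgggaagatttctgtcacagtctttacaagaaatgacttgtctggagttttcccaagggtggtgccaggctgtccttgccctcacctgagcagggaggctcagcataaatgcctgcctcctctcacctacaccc
Saa2: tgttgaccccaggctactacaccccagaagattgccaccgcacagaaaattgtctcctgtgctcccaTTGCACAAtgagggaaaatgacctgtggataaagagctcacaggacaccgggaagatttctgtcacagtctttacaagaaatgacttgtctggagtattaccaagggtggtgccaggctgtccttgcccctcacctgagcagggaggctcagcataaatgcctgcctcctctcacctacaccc
Saa3: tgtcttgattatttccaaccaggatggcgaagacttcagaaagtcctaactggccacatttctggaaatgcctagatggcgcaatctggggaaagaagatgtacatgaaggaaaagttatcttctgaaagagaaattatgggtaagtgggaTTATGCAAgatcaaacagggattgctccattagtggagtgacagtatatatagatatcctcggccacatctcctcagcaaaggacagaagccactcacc

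Saa1 and Saa2 share 94.8% of 251 aligned bases of this window, and Saa1 and Saa3 44.7% of 262. Each of the 3 holds 1 match, which is TTGCACAA in Saa1 and Saa2 and TTATGCAA in Saa3. In Saa3 it begins 99 bases before the start and in Saa1 182 bases before it. A match was found in 9.56% of all 32851 promoter windows of the same length, and a match is a description and not a shown site.

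Lcn2 and Il1rn, both also products of myeloid cells, followed other orders. Lcn2 (chromosome 2, 32384633 to 32388252, minus strand) encodes lipocalin 2, which withholds iron from bacteria by binding their siderophores and is stored in neutrophil granules. It had 5.51, 2.25 and 4.63 TPM in libraries labelled Tumor, against 9.68, 16.9 and 0.668 TPM in those labelled WT. The libraries labelled WT held both the highest values and the lowest, 25.2 times apart. The means were 4.13 ± 1.69 and 9.07 ± 8.12 TPM (SD, n = 3). Tumor minus WT came to -0.47 on the log2 scale (SE 0.90, adjusted p = 0.870 by limma), within that spread.

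The most abundant neutrophil markers, S100a9 and S100a8, were highest in the same library as Lcn2. S100a9, a subunit of calprotectin, had 0.748, 18.9 and 41.6 TPM in libraries labelled Tumor, against 71.9, 180 and 7.79 TPM in those labelled WT. All 11 neutrophil markers summed to 14.1, 56.4 and 112 TPM in libraries labelled Tumor, against 151, 433 and 25.2 TPM in those labelled WT. Tumor replicate 1 had the lowest sum, and its Lcn2 level was the third highest of the 6. The part of neutrophil RNA in Lcn2 was not tested. With the neutrophil markers as a covariate the difference of Lcn2 was 0.26 (SE 0.72, limma adjusted p = 0.819), of the opposite sign. In the 4 lymphoid-rich libraries alone it was -1.69 (SE 0.41, unadjusted p = 0.00377, limma adjusted p = 0.446).

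Il1rn (chromosome 2, 24336853 to 24351494, plus strand) had the largest difference of the members. It had 16.4, 2.39 and 7.10 TPM in libraries labelled Tumor, against 3.12, 1.33 and 0.906 TPM in those labelled WT. Tumor replicate 2 lay below WT replicate 1, and every other library labelled Tumor lay above all those labelled WT. The means of 8.62 ± 7.12 and 1.79 ± 1.17 TPM (SD, n = 3) were 4.83-fold apart, and Tumor minus WT, 1.57 on the log2 scale (SE 0.65, 95% interval -0.02 to 3.15, unadjusted p = 0.0520, limma adjusted p = 0.737) did not pass. It was 0.99 without Tumor replicate 1, 0.76 in the 4 lymphoid-rich libraries, 2.17 without Tumor replicate 2 (unadjusted p = 0.00908, limma adjusted p = 0.991) and 2.03 with adipocyte scaling (unadjusted p = 0.0422, limma adjusted p = 0.697). The difference was positive in all 21 alternatives that kept the gene, some of which cannot change it by construction.

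Macrophage markers stood beside Il1rn. Lyz2, lysozyme of myeloid cells, was at 2214, 1401 and 2167 TPM in libraries labelled Tumor, against 1234, 978 and 733 TPM in those labelled WT, without overlap, as was so for 4 of 10 macrophage markers and 11.8% of all genes. Summed, the 10 macrophage markers came to 4428, 2505 and 3186 TPM in libraries labelled Tumor, against 2231, 2017 and 1843 TPM in those labelled WT. With these markers as a covariate the difference of Il1rn was 0.74 (SE 0.69, limma adjusted p = 0.488). The part of macrophage RNA in the level of Il1rn was not tested further.

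**Figure D4:**
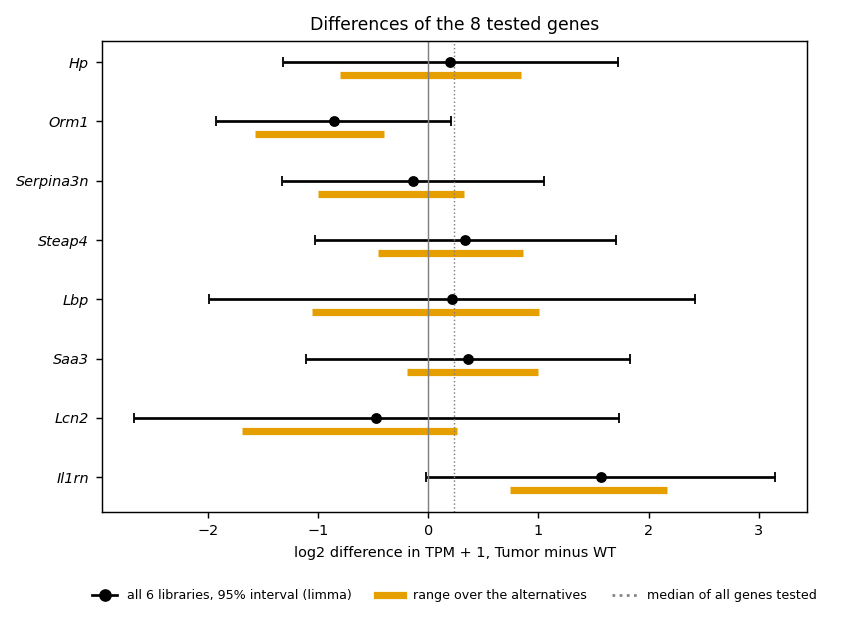
Log2 difference in TPM + 1, Tumor minus WT, of the 8 tested genes with the 95% interval from limma (black) and the range over all alternatives run (orange); the dotted line is the median of all genes tested, 0.23. Every interval spans 0, and the orange range stays on one side of 0 for Orm1 and Il1rn.

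Promoters of Lcn2, Serpina3n and Steap4 are given to describe their motif content, whose bearing on the levels was not tested. The Lcn2 window before the RefSeq start lies wholly within the GENCODE M21 coordinates of the gene, as the annotations differ in the start. The 250 bases before the RefSeq start (GRCm38.p6) are given for Lcn2 (chr2:32387740-32387989, minus strand), Serpina3n (chr12:104406458-104406707, plus strand) and Steap4 (chr5:7960222-7960471, plus strand), 5′ to 3′ on the gene's strand. Capitals mark matches on either strand to TTGCNNAA for C/EBP, TTCNNNGAA for STAT factors and GGG, 3 bases and TTCC for NF-kB, none of which overlap here.
Lcn2: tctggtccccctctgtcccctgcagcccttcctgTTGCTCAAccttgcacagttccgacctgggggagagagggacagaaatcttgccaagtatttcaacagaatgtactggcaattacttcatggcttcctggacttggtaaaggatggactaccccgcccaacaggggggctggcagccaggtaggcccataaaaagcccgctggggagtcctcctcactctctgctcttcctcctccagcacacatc
Serpina3n: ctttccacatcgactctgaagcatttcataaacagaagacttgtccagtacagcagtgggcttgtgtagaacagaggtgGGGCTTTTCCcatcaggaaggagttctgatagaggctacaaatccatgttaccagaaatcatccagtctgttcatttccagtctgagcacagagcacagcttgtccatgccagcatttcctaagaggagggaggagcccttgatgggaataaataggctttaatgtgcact
Steap4: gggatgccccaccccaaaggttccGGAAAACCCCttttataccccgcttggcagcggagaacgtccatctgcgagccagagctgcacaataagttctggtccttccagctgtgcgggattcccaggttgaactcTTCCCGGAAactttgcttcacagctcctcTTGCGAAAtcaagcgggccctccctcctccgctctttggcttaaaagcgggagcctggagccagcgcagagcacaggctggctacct

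Steap4 held a match to each of the 3 motifs, Lcn2 to that of C/EBP alone and Serpina3n to that of NF-kB alone. Of all 32851 promoter windows 7.02% held the STAT letters and 4.65% those of NF-kB. The sequence table matched 7 of the 10 members, with 3 starts for Il1rn. The windows of its first and second starts held none of these letters and that of the third held 1 match for NF-kB. The members Hp, Orm1 and Lbp are named only.

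Other acute phase genes of liver did not pass either. Of 32 listed, 22 were tested, 0 passed in either direction, 0 were higher and 2 lower at an unadjusted p below 0.05, against 3.75% and 1.70% of all genes. The median log2 difference was 0.06, between -0.063 and 0.14 when each library was left out and -0.15 with median-ratio factors. Complement C3 varied by a factor of 1.25 over the 6 libraries, at 747, 745 and 623 TPM in libraries labelled Tumor, against 670, 611 and 766 TPM in those labelled WT, and complement C4b averaged 563 and 489 TPM. The 3 smallest p-values belonged to serpins at low level. Serpina1a, of the antitrypsin family, had 1.04, 1.60 and 1.57 TPM in libraries labelled Tumor, against 4.58, 2.44 and 3.70 TPM in those labelled WT (log2 difference -0.91, SE 0.28, limma adjusted p = 0.737). Serpina3k and Serpina3m averaged 2.17 and 3.06 TPM in libraries labelled Tumor, against 5.38 and 5.44 TPM in those labelled WT. All belong to families of near copies and are uncertain.

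Negative acute phase genes encode carriers whose plasma level falls in inflammation. Of 7 listed, 3 were tested and 0 passed, with a median log2 difference of -0.27, which was 0.25 without Tumor replicate 3, 0.041 without WT replicate 3 and between -0.69 and -0.45 without each of the other 4 libraries. Trf, transferrin, had 2398, 1917 and 761 TPM in libraries labelled Tumor, against 1187, 1736 and 2850 TPM in those labelled WT. Rbp4, the retinol carrier that fat also secretes, averaged 267 ± 159 TPM in libraries labelled Tumor and 347 ± 143 TPM in those labelled WT (SD, n = 3). Both genes were lowest in Tumor replicate 3.

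Inducing cytokines differed widely in level between libraries. Of 12 listed, 7 were tested and 0 passed, with a median log2 difference of 0.68. Leaving out WT replicate 3 brought that median to -0.045, leaving out Tumor replicate 3 to 0.14, and leaving out Tumor replicate 1 to 1.17. Il6 had 0.957, 0.141 and 2.57 TPM in libraries labelled Tumor, against 0.568, 1.13 and 0.383 TPM in those labelled WT, and is named outside the rule because it is the main inducer. Il1b, whose receptor Il1rn blocks, was at 1.34, 3.26 and 38.8 TPM in libraries labelled Tumor, against 3.68, 6.76 and 0.918 TPM in those labelled WT. Its highest value, in Tumor replicate 3, was not matched by the highest Il1rn, which was in Tumor replicate 1. Clcf1, a cytokine of the interleukin 6 family, was at 5.31, 39.5 and 73.9 TPM in libraries labelled Tumor, against 36.4, 24.0 and 1.73 TPM in those labelled WT, and was low in the libraries poor in lymphoid transcripts. Lif, of the same family, averaged 3.91 and 2.02 TPM, Tnf 8.12 and 5.21 TPM and Il1a 2.60 and 0.979 TPM in libraries labelled Tumor and WT.

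Receptors and factors of the pathway were well represented. Of the 13 receptor genes tested 0 passed and 12 had a positive difference, with a median of 0.37 where that of all genes was 0.23. The receptor median was 0.19 with median-ratio factors, where that of all genes was 0.04, 0.21 without WT replicate 2 and 0.15 with the neutrophil covariate. Tnfrsf1b, a receptor of tumor necrosis factor, averaged 48.7 and 28.5 TPM, Ifngr1, a chain of the interferon gamma receptor, 197 and 156 TPM, and Il6ra 16.2 and 11.7 TPM in libraries labelled Tumor and WT. Among 21 signalling genes and factors tested, 0 passed and 18 were positive, with a median of 0.42. As the median of all genes was 0.23, most genes tested were positive too. The median of the signalling list was 0.15 without Tumor replicate 3, 0.11 without WT replicate 3, 0.66 without Tumor replicate 1 and 0.21 with median-ratio factors. Cebpb, the C/EBP factor that drives acute phase genes in liver, had a negative difference. It had 91.9, 72.4 and 76.0 TPM in libraries labelled Tumor, against 109, 164 and 184 TPM in those labelled WT. The groups did not overlap, as for 3.23% of all genes in that direction. Its log2 difference of -0.89 (SE 0.24, unadjusted p = 0.00981, limma adjusted p = 0.737) did not pass. Cebpa, the abundant adipocyte member of that family, averaged 298 and 384 TPM, and Jak2, the kinase of cytokine receptors, 25.5 and 15.5 TPM in libraries labelled Tumor and WT. Stat3 and Pias3 had no overlap in the other direction, as did 11.8% of all genes. Stat3 had 76.8, 76.8 and 90.0 TPM in libraries labelled Tumor, against 75.8, 53.6 and 69.5 TPM in those labelled WT. With median-ratio factors the groups overlapped for both Stat3 and Pias3. By those factors 536 of all genes tested lay higher in every library labelled Tumor, where 1668 did in TPM.

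Feedback targets of STAT3 gave no call among 10 tested, with a median of 0.41, which was 0.029 without Tumor replicate 3, 0.033 without WT replicate 3 and 0.20 with median-ratio factors. Here Mcl1, Il4ra and Cebpd had the smallest p-values. Mcl1, a survival factor, averaged 191 ± 43.7 TPM in libraries labelled Tumor and 137 ± 40.0 TPM in those labelled WT (SD, n = 3), and Cebpd 17.4 ± 3.46 and 23.0 ± 4.31 TPM. Partners to which the members bind or with which they act were counted last. Of 16 tested 0 passed, 1 was higher and 0 lower at an unadjusted p below 0.05, against 3.75% and 1.70% of all genes. The difference was positive for 10 and the median was 0.38, where that of all genes was 0.23. The partners' median was 0.16 without Tumor replicate 1 and 0.17 with median-ratio factors, where that of all genes was 0.04. Ly96, the MD-2 subunit that joins Tlr4 to read the lipid that Lbp delivers, had 23.6, 23.1 and 23.0 TPM in libraries labelled Tumor, against 15.1, 16.8 and 12.6 TPM in those labelled WT. It had no overlap, as was so for 2 of the 16 and 11.8% of all genes in that direction. Its log2 difference was 0.62 (SE 0.17, unadjusted p = 0.0102, limma adjusted p = 0.737). Tlr2, which reads bacterial lipoproteins, was at 9.84, 9.30 and 15.8 TPM in libraries labelled Tumor, against 6.62, 8.36 and 3.77 TPM in those labelled WT.

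**Figure D5:**
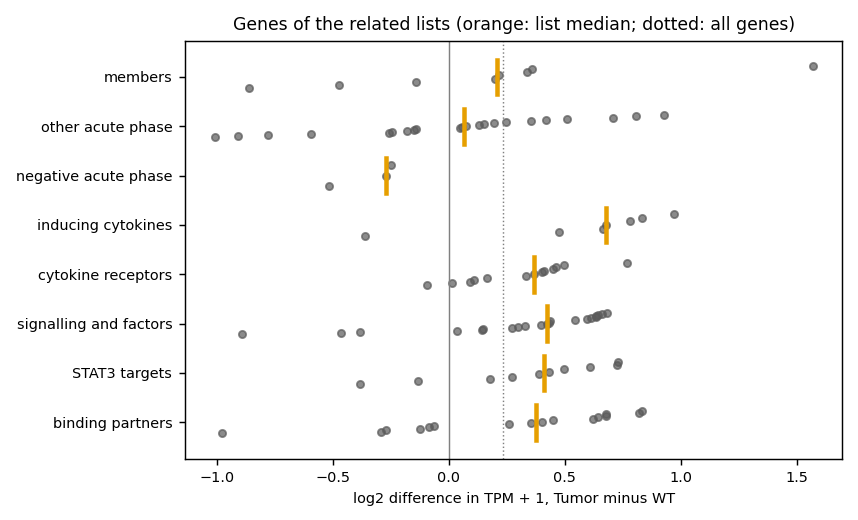
Log2 difference in TPM + 1, Tumor minus WT, of every tested gene of the 10 members and of 7 related lists (points), with the list median in orange and the median of all genes as a dotted line. The medians of the lists run from -0.27 for negative acute phase genes to 0.68 for inducing cytokines, and that of the members is 0.21.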

How the data were processed

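RNA was poly-A selected from subcutaneous fat (integrity number above 7) and libraries were made with TruSeq chemistry, per the labels' protocols. The authors deposited 1 table with 1 column per library. Its name speaks of raw counts, yet the deposited values are TPM: each column sums to 1000000 and values are not whole. The submitters' processing notes list GRCm38.p6 as the build and DESeq2 as a tool without a role. Aligner, quantifier and annotation: not given in the sources used here. TPM are shares, so that abundant transcripts of one tissue lower all others.

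Limma 3.58.1 (R 4.3.3) was fitted to log2(TPM + 1) with group alone, a mean-variance trend and robust moderation, for 14140 genes reaching 1 TPM in 3 or more libraries. Benjamini-Hochberg adjustment ran over all of them, with a threshold of 0.05, and differences on this scale understate changes of low genes. Rows whose name repeats (4) were left out. Total reads are not known. At 1 kb of transcript beyond 165 nt, 1 fragment was worth 0.0385 to 0.0513 TPM, from the steps of low values. The procedure was tested on simulated data with the same noise for all genes, below that of most genes here. That test cannot show how many changes were missed in these libraries. Coordinates are from GENCODE M21 and promoters from RefSeq on GRCm38.p6. Python 3.11.15 with pandas 2.3.3, numpy 2.4.6, Biopython 1.88 and matplotlib 3.10.9 did the rest.

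The members, the related lists and the tests were chosen with earlier results of these data known. All members were named, and from each related list the 3 genes with the smallest p and the 2 with the highest mean, of which a selection is printed here. Alternatives were each library left out, a replicate block, other scalings, pseudocounts and filters, marker lists as covariates and the 4 lymphoid-rich libraries. Scaling by adipocyte markers and the macrophage covariate were added after seeing the data.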

Additional observations from a re-analysis of the deposited data

How the results depend on the processing

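Across 22 alternatives 0 members passed the adjusted threshold. No gene passed at all except in the fit with B and plasma cell markers as a covariate, which called 1 gene, no member. The number of members without overlap between the groups was 0 in all 6 libraries. It was 0 to 2 when each library was left out, where 18.5% to 41.4% of all genes did not overlap. With median-ratio factors it was 1, which was Orm1 (10.2% of all genes in either direction). It was 2 in the 4 lymphoid-rich libraries and 2 with adipocyte scaling (7.22%). Fewer libraries separate more genes by construction, 49.4% of all genes in the 4 lymphoid-rich ones. Medians of the members and the related lists, given with them, also moved. That of the members turned negative without Tumor replicate 1 (-0.34) and with the neutrophil (-0.23) and macrophage (-0.65) covariates. It was also just below 0 with median-ratio factors (-0.0088) and in the 4 lymphoid-rich libraries (-0.011). Scaling moved the median of all genes from 0.23 to 0.04 with median-ratio and 0.06 with upper-quartile factors.

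Orm1 stayed negative and Il1rn positive in every alternative that gave a value, and 6 genes changed sign in some, for which the cause was not tested. A replicate block, another filter or other moderation cannot change a difference, so those alternatives do not bear on its sign. With each library left out in turn the log2 difference ran from -0.32 to 0.84 for Hp, from -0.028 to 0.86 for Steap4, from -0.37 to 1.00 for Lbp, from -0.028 to 0.99 for Saa3, from -0.60 to 0.25 for Serpina3n, from -1.49 to 0.22 for Lcn2, from -1.22 to -0.46 for Orm1 and from 0.99 to 2.17 for Il1rn. Tumor replicate 1 turned Hp, Steap4, Lbp and Saa3 negative when left out, WT replicate 1 or 2 turned Lbp negative, WT replicate 2 turned Lcn2 positive, and Tumor replicate 3 or WT replicate 3 turned Serpina3n positive. Hp was -0.022 with median-ratio factors, -0.0020 with upper-quartile factors and -0.080 in the 4 lymphoid-rich libraries. With the neutrophil covariate Hp was -0.27, Lbp -0.68, Steap4 -0.19 and Lcn2 0.26. With the macrophage covariate Hp was -0.81, Lbp -1.05, Steap4 -0.45 and Saa3 -0.19. Serpina3n was 0.17 with the adipocyte covariate and 0.32 with adipocyte scaling.

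Replicate numbers are shared by the groups, and the deviations of same-numbered libraries correlated at -0.758, 0.205 and -0.843 over genes. Tumor replicate 1 and WT replicate 3 were poor in lymphoid transcripts, whereas WT replicate 1 and Tumor replicate 3 were not. The correlations therefore cannot decide whether the number pairs libraries. With the number as a replicate block 0 genes and 0 members passed, as without it, and Il1rn was 1.57 (unadjusted p = 0.0297, limma adjusted p = 0.985). Il1rn had too few values of at least 5 TPM for the stricter filter. Saa1 and Saa2 entered only the fit without a filter.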
